A study of Drosophila melanogaster with 18 samples.

Results

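The Hox genes of Drosophila are 8 homeobox genes that give the body segments their identities, and all 8 (lab, pb, Dfd, Scr, Antp, Ubx, abd-A and Abd-B) were matched among the 17559 genes counted in wing imaginal discs. They were chosen by name, through their FlyBase identifiers, and not by any measured value. Polyadenylated RNA had been sequenced from wing discs of larvae at the wandering stage of the third instar. Per the labels, overlapping clones of cells were induced by heat shock at 37 °C for 30 min, the transgene was held silent at 18 °C, and the animals spent their last 48 h or 78 h at 28 °C. In one arm the clones expressed wild type Tip60 (Tip60wt), in another a dominant negative form of it (Tip60dn), and the remaining arm is labelled control with no further description. Each arm and duration had 3 libraries, 18 in all, and each library pooled 40 discs. All groups shared the heat shock and both temperatures. The driver of the transgene and the share of disc cells that carried it are not given in the labels, so each value is an average over expressing and other cells. In such bulk samples fewer cells of a type and less RNA per cell cannot be told apart. The labels do not say whether the pools came from separate crosses, so p-values measure only the spread between these libraries.

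Hox proteins are transcription factors that bind DNA together with the homeodomain cofactors Extradenticle (exd) and Homothorax (hth). Their genes lie in 2 clusters, the Antennapedia complex and the bithorax complex. Polycomb group proteins keep each gene silent outside its own domain, and trithorax group proteins keep it active inside. The wing disc belongs to the second thoracic segment, where Antp is the Hox gene of the segment. Ubx gives the haltere its identity and is also made in part of the peripodial layer of the wing disc, while the other members act mainly in head, first thoracic or abdominal segments. Tip60 is the acetyltransferase of a chromatin complex, and the question here was whether Antp or the normally silent Hox genes differed between the 3 arms and the 2 durations.

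Library totals ranged from 65277725 to 105716567 counts. Tip60 itself was counted at 30.8 to 44.9 CPM (counts per 1e6 library counts, after TMM scaling of library sizes) in the control libraries, 985.9 to 1985 CPM with Tip60wt and 1642 to 3346 CPM with Tip60dn, and since both transgenes carry Tip60 sequence this separates them from the control but not from each other. Genes of the wing disc were present in every library: the summed level of 16 such genes was 3617 to 4332 CPM, led by zfh2 and sd, transcription factor genes of the disc. Most small values were even, as 68.9% of all values between 1 and 10 were, and the value 2 was listed 14010 times against 4699 times for 1. The cause was not tested, and the counting error of low values may be larger than the counts alone give.

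Antp was the only member with a high level, Ubx followed at a lower one, and the other 6 members were near or below 1 CPM. Levels between genes are given as mean CPM per kb of exon over the 18 libraries. On that scale Antp (FBgn0260642, BDGP6 chromosome 3R, 6896253 to 6999228, minus strand) stood at 12.6, and Ubx (FBgn0003944, 3R, 16656623 to 16734426, minus strand) at 1.61. The gene lab (FBgn0002522, 3R, 6661427 to 6678590, minus strand) stood at 0.166 and Scr (FBgn0003339, 3R, 6823120 to 6849981, minus strand) at 0.114. Far below these were abd-A (FBgn0000014, 3R, 16807214 to 16830049, minus strand) at 0.0278 and Dfd (FBgn0000439, 3R, 6791836 to 6802428, plus strand) at 0.0155. Abd-B (FBgn0000015, 3R, 16927212 to 16972236, minus strand) stood at 0.00505. The last, pb (FBgn0051481, 3R, 6707800 to 6742063, minus strand), had 2 counts in 1 library and none in the other 17. All 8 are protein-coding genes. Antp shares 50.1% of its exon bases with CG46458, an annotated gene on the same strand that is not in the tables, so reads of these genes may not have been separable. Ubx shares 1.19% of its exon bases with asRNA:PS4 on the opposite strand.

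**Figure D1:**
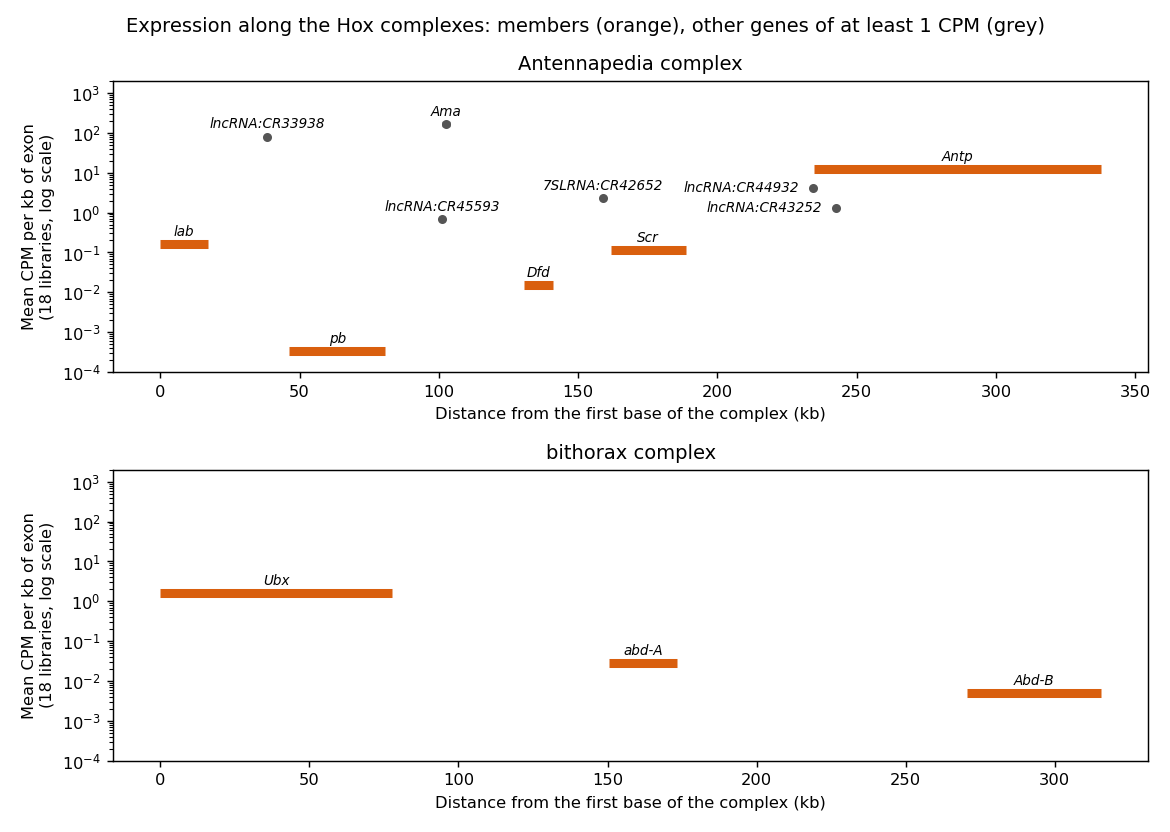
Mean CPM per kb of exon over the 18 libraries (vertical axis, log scale) along the 2 Hox complexes (horizontal axis, distance in kb from the first base of the complex); orange bars span the Hox genes, and grey points are other genes that reached a mean of 1 CPM in any group. Antp stands highest among the Hox genes at 12.6 CPM per kb, Ubx at 1.61, and the other 6 lie below 0.2.

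Antp, which in the second thoracic segment is expressed in parts of the wing disc and in the leg discs, was nearly level over all groups. At 48 h replicates 1 to 3 held 99.1, 103.1 and 103.9 CPM in the control, 98.3, 92.8 and 104.5 CPM with Tip60wt, and 93.2, 97.9 and 96.0 CPM with Tip60dn. At 78 h they held 103.4, 104.4 and 102.8 CPM in the control, 100.3, 96.0 and 96.9 CPM with Tip60wt, and 101.5, 92.5 and 108.7 CPM with Tip60dn. The highest and lowest Tip60dn libraries at 78 h were also the highest and lowest of all 18. The groups overlapped in 4 of the 6 comparisons within a duration. The exceptions were the Tip60dn libraries at 48 h and the Tip60wt libraries at 78 h, which lay below the control libraries of their duration, as did 24.6% and 14.7% of all genes in those comparisons.

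From highest to lowest group mean, the order for Antp was control at 78 h (103.5 ± 0.81 CPM, SD, n = 3), control at 48 h (102.0 ± 2.55), Tip60dn at 78 h (100.9 ± 8.15), Tip60wt at 48 h (98.5 ± 5.87), Tip60wt at 78 h (97.8 ± 2.28) and Tip60dn at 48 h (95.7 ± 2.37). The highest mean was 1.08 times the lowest, and the ranges of neighbouring groups in this order overlapped. None of the 6 comparisons within a duration called Antp in edgeR's quasi-likelihood test. The log2 fold change was -0.04 (95% interval -0.15 to 0.07, adjusted p = 0.569) for Tip60dn against Tip60wt at 48 h and 0.05 (-0.07 to 0.17, adjusted p = 0.533) at 78 h. Against the control it was -0.09 (-0.20 to 0.02, adjusted p = 0.175) at 48 h and -0.03 (-0.15 to 0.09, adjusted p = 0.677) at 78 h. For Tip60wt against the control it was -0.05 (-0.16 to 0.06) at 48 h and -0.08 (-0.20 to 0.04) at 78 h. An average over both durations, added after these values were seen, gave 0.00 (-0.08 to 0.08, adjusted p = 0.971) for Tip60dn against Tip60wt and -0.06 (-0.14 to 0.01, adjusted p = 0.145) against the control. The latter was called lower, at -0.10 (adjusted p = 0.0272), without Tip60dn replicate 3 at 78 h.

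**Figure D2:**
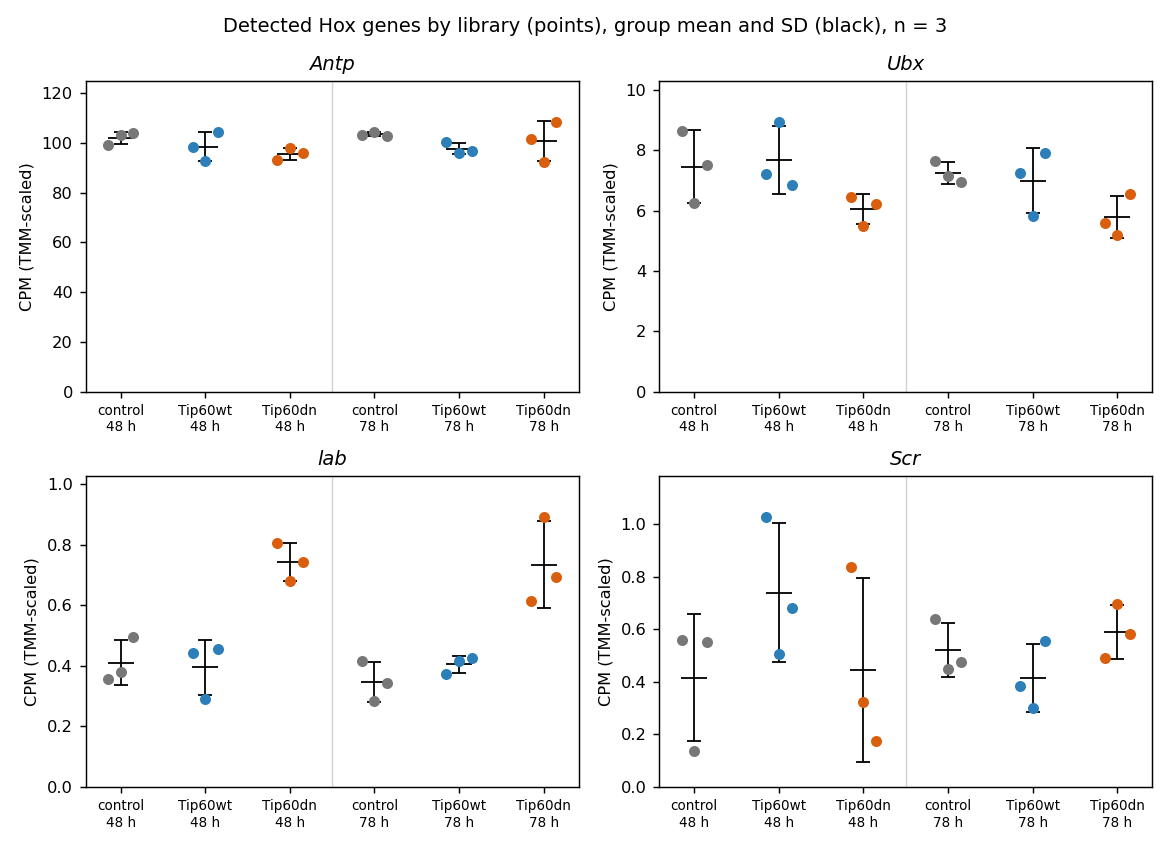
CPM (TMM-scaled, vertical axis from 0) of Antp, Ubx, lab and Scr in each library (points) by arm and duration (horizontal axis), with the group mean and SD in black, n = 3. The Tip60dn libraries of lab, 0.613 to 0.893 CPM, all lie above the other libraries, at most 0.494 CPM, while Antp stays between 92.5 and 108.7 CPM.

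Of the 5 members that passed the filter on low counts, lab was the 1 called higher with Tip60dn. In Drosophila embryos it acts in the head and in the copper cells of the midgut. At 48 h its replicates 1 to 3 held 32, 36 and 42 counts in the control (0.357, 0.379 and 0.494 CPM), 45, 28 and 32 with Tip60wt (0.441, 0.290 and 0.454 CPM), and 73, 53 and 47 with Tip60dn (0.805, 0.681 and 0.742 CPM). At 78 h they held 37, 27 and 26 counts in the control (0.415, 0.282 and 0.344 CPM), 32, 39 and 33 with Tip60wt (0.373, 0.417 and 0.426 CPM), and 65, 64 and 55 with Tip60dn (0.613, 0.893 and 0.695 CPM). All 6 Tip60dn libraries lay above all 12 others at both durations, while the control and Tip60wt libraries overlapped. Over all genes, 25.3% and 24.1% lay higher with Tip60dn than with Tip60wt without overlap, at 48 h and 78 h in turn, and 26.2% and 28.6% higher than the control. These shares are for 3 against 3 libraries, and the share of all genes that separate 6 from 12 libraries was not counted. These are low levels: even with Tip60dn the mean per kb of exon was 0.244 CPM at 48 h.

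In edgeR's quasi-likelihood test lab was higher with Tip60dn than with Tip60wt by a log2 fold change of 0.92 (SE 0.28, adjusted p = 0.0310) at 48 h and 0.85 (SE 0.27, adjusted p = 0.0338) at 78 h, 1.89-fold and 1.80-fold. Against the control it was higher by 0.86 (SE 0.28, adjusted p = 0.0361) at 48 h and 1.08 (SE 0.27, adjusted p = 0.0105) at 78 h. The gene was thus 1 of 5 members tested that was called higher in each of these comparisons, where 18% and 17.6% of all genes were called higher than with Tip60wt, at 48 h and 78 h in turn, and 19.6% and 22.4% higher than the control. A share of 1 in 5 is near that background. Called in either direction were 35.7% and 36.8% of genes against Tip60wt, and 39% and 44.2% against the control. For Tip60wt against the control lab was not called, at -0.06 (95% interval -0.69 to 0.58, adjusted p = 0.943) at 48 h and 0.23 (-0.38 to 0.84, adjusted p = 0.691) at 78 h.

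The lab call was near the threshold in 3 of these 4 comparisons. Against Tip60wt at 48 h the call was lost when any 1 of the 6 libraries was left out (adjusted p 0.0509 to 0.0869), against the control at 48 h without any 1 except control replicate 3 (the other 5 gave 0.0646 to 0.116), and against Tip60wt at 78 h without any 1 except Tip60dn replicate 1 (0.0702 to 0.133). It was lost in the same 3 with no filter on low counts (adjusted p = 0.0579, 0.0730 and 0.0714). Replicate numbers paired the Tip60dn and Tip60wt libraries at 78 h, and with the replicate as a block the log2 fold change there was 0.85 with adjusted p = 0.0653. Against the control at 78 h the call was kept in all 6 (0.0134 to 0.0482). The average over both durations called lab higher by 0.88 (SE 0.18, adjusted p = 6.94e-04) against Tip60wt and 0.97 (SE 0.18, adjusted p = 2.78e-04) against the control, and both calls held without any 1 of the 12 libraries. In the same averages 26.4% and 28.7% of all genes were called higher, and 51.8% and 54.9% in either direction.

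Genes listed as markers of other cell types also moved with Tip60dn. Whether cells of the wing disc itself express the genes of any marker list used here was not tested. A higher sum therefore need not mean more cells of that type. Of 10 hemocyte genes, led by ush and vkg and none at 0 in any library, 9 rose and 1 fell against Tip60wt at 48 h, 9 rose against it at 78 h, and 8 and 6 rose against the control. Their summed level was 517.8 to 683.9 CPM with Tip60dn at 48 h, against 262.2 to 333.6 in the control and 265.7 to 287.1 with Tip60wt. At 78 h it was 343.1 to 668.5 CPM with Tip60dn, against 287.5 to 319 in the control and 226.6 to 308.6 with Tip60wt. The sums hide a shift in the Tip60wt arm. Against the control, 3 of these 10 genes fell with Tip60wt at 48 h and 0 at 78 h, with median log2 fold changes of -0.44 and -0.54. Over all genes 3.57% and 4.07% were called there in either direction. Within the Tip60dn libraries at 78 h, replicate 1 was lowest both for the hemocyte sum and for lab. The highest sum (replicate 3) and the highest lab value (replicate 2) were in different libraries. For 9 myoblast genes, led by Mef2 and stumps, the sum was 334.6 to 415.7 CPM with Tip60dn and 279.2 to 321.9 otherwise. For 7 tracheal genes, led by pio and vvl, it was 2236 to 2408 against 1769 to 2182. For 6 neuroblast genes, led by dpn and insc, it was 27.6 to 32.4 against 24.0 to 26.8. These sums were likewise higher without overlap, none of these genes being at 0 in any library. Of the myoblast genes 1 to 8 rose, of the tracheal genes 2 to 5 and of the neuroblast genes 0 to 2, depending on the comparison. In the same comparisons 17.6% to 22.4% of all genes were called higher, and 24.1% to 28.6% lay higher without overlap. Both shares are for single genes in 3 against 3 libraries. No such share was counted for sums over lists, or for 6 against 12 libraries. The lowest counts for the myoblast and neuroblast genes were below the share called higher. The part of these cells in the lab values was not tested. The sum over 10 neuron genes, led by CadN and elav, overlapped between all groups, at 144.9 to 179.5 CPM, and Syn was at 0 in at least 1 library. Its 2 leading genes moved in opposite directions. The mean of elav was 31.4 CPM with Tip60dn at both durations, against 64.1 (Tip60wt) and 67.2 (control) at 48 h and 61.7 and 64.1 at 78 h. CadN overlapped at 48 h and was at 108.8 CPM with Tip60dn at 78 h, against 88.7 (Tip60wt) and 87.7 (control). Of the 9 neuron genes tested, 2 and 4 rose against Tip60wt at 48 h and 78 h, 3 and 4 rose against the control, and 1 fell in each comparison.

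Ubx lay lower with Tip60dn in all 4 comparisons, by 0.27 to 0.34 on the log2 scale, without passing the test within either duration. Its replicates 1 to 3 at 48 h held 8.65, 6.25 and 7.51 CPM in the control, 7.21, 8.96 and 6.87 CPM with Tip60wt, and 6.45, 5.50 and 6.23 CPM with Tip60dn. At 78 h they held 7.65, 7.16 and 6.94 CPM in the control, 7.26, 5.82 and 7.91 CPM with Tip60wt, and 5.59, 5.20 and 6.55 CPM with Tip60dn. The Tip60dn libraries lay below all Tip60wt libraries at 48 h and below all control libraries at 78 h, as did 24.4% and 28.1% of all genes in those comparisons. They overlapped with the control at 48 h and with Tip60wt at 78 h.

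By group mean Ubx ran from Tip60wt at 48 h (7.68 ± 1.12 CPM, SD, n = 3) through control at 48 h (7.47 ± 1.20), control at 78 h (7.25 ± 0.362) and Tip60wt at 78 h (6.998 ± 1.07) to Tip60dn at 48 h (6.06 ± 0.502) and at 78 h (5.78 ± 0.696), and neighbours in this order overlapped. The log2 fold change was -0.34 (SE 0.14, adjusted p = 0.0966) for Tip60dn against Tip60wt at 48 h and -0.27 (SE 0.13, adjusted p = 0.125) at 78 h. Against the control it was -0.30 (SE 0.14, adjusted p = 0.134) at 48 h and -0.32 (SE 0.13, adjusted p = 0.0708) at 78 h. The last was called with DESeq2 (adjusted p = 0.0462), with only the 6 libraries compared (0.0491) and without Tip60dn replicate 3 (0.0421), and Tip60dn against Tip60wt at 78 h was called without Tip60wt replicate 2 (0.0376). In the average over both durations Ubx was called lower, at -0.31 (SE 0.10, adjusted p = 0.0170) against Tip60wt and -0.31 (SE 0.10, adjusted p = 0.0142) against the control, where 25.4% and 26.2% of all genes were called lower. Tip60wt and control did not differ by more than their spread, with 0.04 (95% interval -0.28 to 0.36) at 48 h and -0.05 (-0.34 to 0.24) at 78 h.

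Ratios of counts within a library do not depend on how libraries are scaled against each other. There were 0.604 to 0.965 lab counts per 100 Antp counts in the Tip60dn libraries and 0.270 to 0.476 in the others. Ubx counts per 100 Antp counts were 5.62 to 6.93 with Tip60dn at 48 h, which overlapped with 6.06 to 8.73 in the control and 6.57 to 9.66 with Tip60wt. At 78 h they were 5.51 to 6.03 with Tip60dn, below 6.75 to 7.40 in the control and 6.07 to 8.17 with Tip60wt. By CPM alone Ubx overlapped with Tip60wt there. The share of all genes that separate on such a ratio to Antp was not counted. By CPM at 78 h, 23.7% of all genes lay lower with Tip60dn than with Tip60wt without overlap, and 28.1% lower than the control. An exact two-sided permutation test of 3 against 3 libraries cannot give a p below 0.1, and it gave p = 0.1 for lab in the 4 Tip60dn comparisons and for Ubx in both at 78 h (Benjamini-Hochberg adjusted p = 0.2 over 12 tests).

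**Figure D3:**
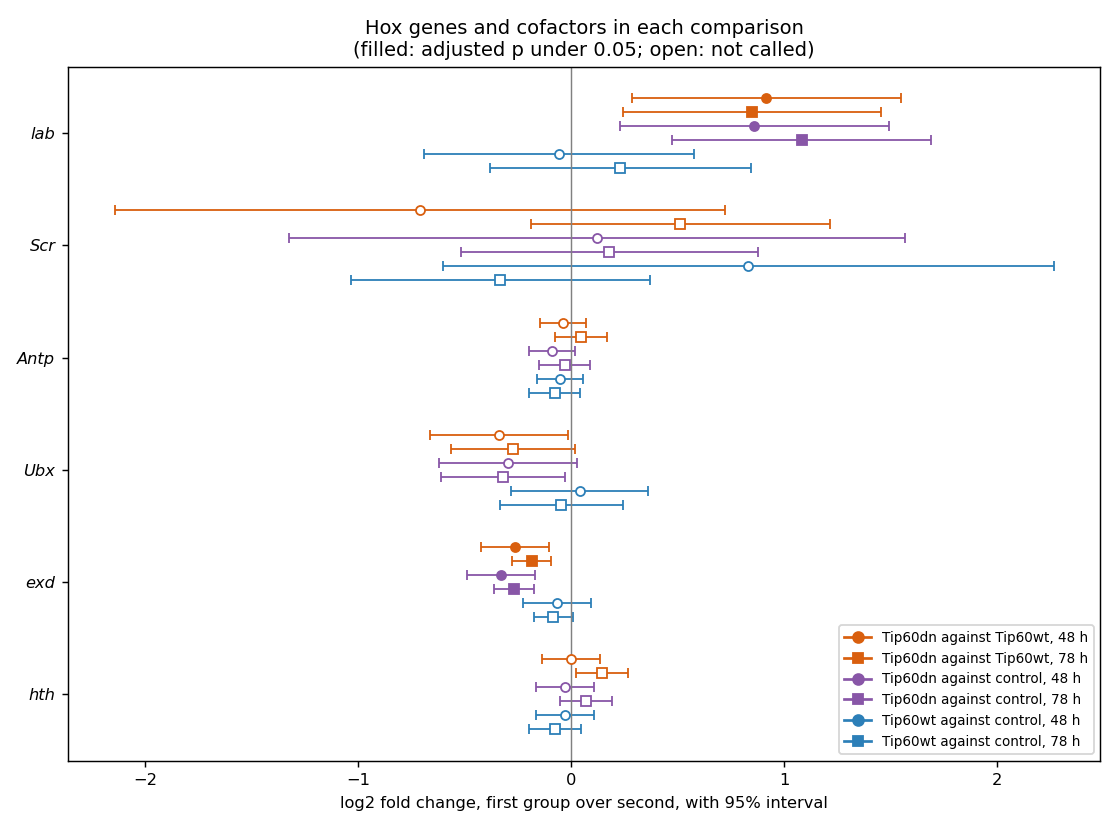
Log2 fold change with its 95% interval (horizontal axis) of the members lab, Scr, Antp and Ubx and the cofactors exd and hth in the 6 comparisons within a duration; filled symbols were called at an adjusted p under 0.05, open symbols were not. The 4 Tip60dn comparisons of lab lie between 0.85 and 1.08 and those of exd between -0.33 and -0.19, all filled, while the intervals of Antp are narrow and cross 0.

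Scr, which sets the identity of the first thoracic segment and the labial segment, varied within groups as much as between them. At 48 h replicates 1 to 3 held 50, 13 and 47 counts in the control, 105, 49 and 48 with Tip60wt, and 76, 25 and 11 with Tip60dn. At 78 h they held 57, 43 and 36 in the control, 33, 28 and 43 with Tip60wt, and 52, 50 and 46 with Tip60dn. All groups overlapped, and no comparison called Scr. The sum over 8 leg disc markers, a disc in which Scr and Antp also act, overlapped at 48 h (176.9 to 243 CPM). At 78 h this sum, led by bab2 and al, was higher with Tip60dn (218.4 to 240 CPM, against 176.9 to 217.3). Of 7 leg disc markers tested there, 1 was called higher against Tip60wt and 2 against the control, beside 17.6% and 22.4% of all genes. Above 0 lay 3 of the 7 against Tip60wt (median log2 fold change -0.02) and 5 against the control (0.22). None was called at 48 h in the Tip60dn comparisons, and Lim1 was at 0 in at least 1 library. The intervals of Scr were wide: the log2 fold change of Tip60dn against Tip60wt was -0.71 (95% interval -2.14 to 0.72, adjusted p = 0.414) at 48 h and 0.51 (-0.19 to 1.21, adjusted p = 0.227) at 78 h.

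The gene abd-A, which patterns the anterior abdomen, had most of its 241 counts in a few libraries. With Tip60wt at 48 h all 82 counts were in replicate 2 and none in replicates 1 and 3. With Tip60dn at 78 h replicate 2 held 42 counts and replicates 1 and 3 held 2 each, and in the control at 48 h the replicates held 14, 36 and 4. The other 9 libraries held 0 to 13. Among fat body markers, a sum over 6 genes led by Fbp1 and Lsp1beta and none at 0, Tip60wt replicate 2 at 48 h also stood apart, at 2217 CPM against 12.6 and 160.7 in the other replicates, and Tip60dn replicate 2 at 78 h held 338.5 CPM against 130.4 and 138.7. In the control at 48 h the sum was highest in replicate 1 (190.7 CPM) and not in replicate 2 (87.6 CPM). The range was 44.0 to 94.4 CPM with Tip60dn at 48 h, 214.3 to 407.5 CPM in the control at 78 h and 68.7 to 254.6 CPM with Tip60wt at 78 h. The part of fat body RNA in the abd-A counts was not tested. No comparison called abd-A (log2 fold change -3.23, SE 1.78, adjusted p = 0.187 for Tip60dn against Tip60wt at 48 h).

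Dfd, pb and Abd-B did not pass the filter on low counts and have no place in the main test. Dfd, which shapes the mandibular and maxillary segments of the head, had no count in any of the 6 Tip60wt libraries. It had 3, 8 and 3 counts in the control at 48 h, 6, 0 and 0 in the control at 78 h, 0, 8 and 2 with Tip60dn at 48 h, and 0, 14 and 17 with Tip60dn at 78 h. The 3 counts that a total of 0 allows over the Tip60wt group at 78 h equal 0.0118 CPM. The observed level of the 31 counts with Tip60dn at 78 h was 10.2 times that limit, with replicate 1 at 0 like the Tip60wt libraries. Without 1 library that ratio ranged from 6.49 (without Tip60wt replicate 2) to 17.3 (without Tip60dn replicate 1), and it was 6.67 without Tip60dn replicate 3. At 48 h the observed level of the 10 counts was 3.86 times the limit. Without Tip60dn replicate 2, which held 8 of them, 2 counts remain and no ratio is given. Leaving out another library at 48 h gave 2.39 to 6.27, lowest without Tip60wt replicate 1 and highest without Tip60dn replicate 1, and 2.48 without Tip60wt replicate 2. These ratios take each count as a separate molecule and cover the counting error of the Tip60wt total of 0 only. They leave out the counting error of the Tip60dn counts and the spread between libraries. With no filter on low counts neither comparison called Dfd (adjusted p = 0.0926 at 48 h and 0.0824 at 78 h), while the average over both durations did (adjusted p = 0.0116). Abd-B, the Hox gene of the posterior abdomen and genital disc, had 0 to 14 counts in each library and 91 in all. Among genital disc markers the summed level, nearly all from Poxn, was 17.9 to 19.8 CPM with Tip60dn at 48 h and 12.5 to 17.0 CPM otherwise. At 78 h it was 16.3 to 21.2 CPM with Tip60dn and 12.8 to 14.9 CPM otherwise. Of 2 tested at 48 h, 1 was called higher against Tip60wt and 2 against the control, beside 18% and 19.6% of all genes. The 1 tested at 78 h was called higher in both, beside 17.6% and 22.4%. The genes cad, eve, lz and prd were each at 0 in at least 1 library, and eve and prd had at most 2 and 4 counts. The gene pb, needed for the adult mouthparts, had its 2 counts in replicate 1 of the control at 48 h. In a single library 3 counts, the limit a count of 0 allows, correspond to 0.0284 to 0.0460 CPM.

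**Figure D4:**
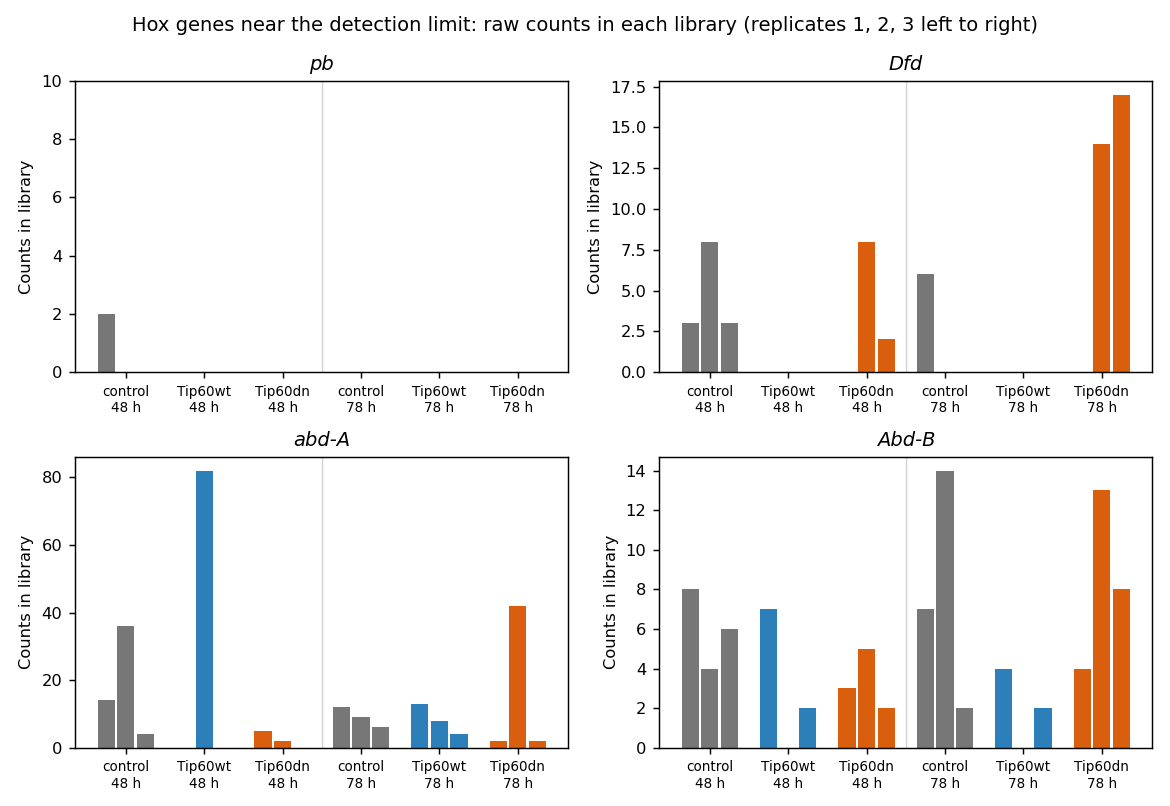
Raw counts (vertical axis) of pb, Dfd, abd-A and Abd-B in each library, as 1 bar per library with replicates 1, 2 and 3 from left to right, by arm and duration (horizontal axis). Dfd has no bar with Tip60wt and its highest bars, 14 and 17 counts, are with Tip60dn at 78 h, and abd-A has 82 counts in 1 Tip60wt library at 48 h.

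Duration of expression made no difference that passed the test for any of the 5 members tested, in any arm. From 48 h to 78 h Antp moved by a log2 fold change of 0.02 (95% interval -0.09 to 0.13) in the control, -0.01 (-0.12 to 0.10) with Tip60wt and 0.08 (-0.03 to 0.19) with Tip60dn. For lab the values were -0.24 (-0.78 to 0.30), 0.04 (-0.50 to 0.58) and -0.02 (-0.55 to 0.51). With edgeR's quasi-likelihood test, 0 of these 5 were also under an unadjusted p of 0.05, and DESeq2 and limma-voom called 0 as well. Over all 11173 genes tested, the share called was 0% in the control, 0% with Tip60wt and 0.134% with Tip60dn. The difference between durations in the Tip60dn effect was tested as an interaction over 18 libraries, which called 0 members and 0% of all genes. It was -0.06 (95% interval -0.82 to 0.70, adjusted p = 0.988) for lab against Tip60wt and 0.22 (-0.54 to 0.98, adjusted p = 0.956) against the control. For Antp it was 0.09 (-0.07 to 0.24, adjusted p = 0.891) and 0.06 (-0.10 to 0.21, adjusted p = 0.941), and for Ubx 0.07 (-0.36 to 0.49, adjusted p = 0.979) and -0.03 (-0.45 to 0.40, adjusted p = 0.994).

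Between Tip60wt and the control 0 of the 5 members were called at 48 h, where 3.57% of all genes were called, and 0 at 78 h, where 4.07% were. In the average over both durations 0 were called, against 14.1% of all genes. None of these 5 was under an unadjusted p of 0.05 there, and DESeq2 and limma-voom called 0. Dfd, which is outside the filter, had an unadjusted p of 0.0218 at 48 h (adjusted p = 0.262) and 0.0123 in the average (adjusted p = 0.102) in edgeR's fit with no filter.

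Of the cofactors, exd fell with Tip60dn in all 4 comparisons and hth was not called in any. The exd gene (FBgn0000611, BDGP6 chromosome X, 15992468 to 15996509) encodes the homeodomain partner that Hox proteins share. Its group means were 457.1 ± 25.7 CPM (SD, n = 3) in the control, 436.2 ± 41.3 with Tip60wt and 362.7 ± 16.3 with Tip60dn at 48 h, and 462.0 ± 21.5, 434.3 ± 14.1 and 381.7 ± 7.76 in the same order at 78 h. No Tip60dn library reached a library of another arm at its duration, as was so for 24.4% and 23.7% of all genes against Tip60wt and 24.6% and 28.1% against the control. Against Tip60wt the log2 fold change was -0.26 (SE 0.07, adjusted p = 0.0187) at 48 h and -0.19 (SE 0.04, adjusted p = 0.00725) at 78 h, and against the control -0.33 (SE 0.07, adjusted p = 0.00575) and -0.27 (SE 0.04, adjusted p = 9.16e-04). Called lower were 17.7% and 19.2% of all genes against Tip60wt, and 19.4% and 21.7% against the control. Without 1 library the 48 h call against Tip60wt was lost in 3 of 6 cases (highest adjusted p = 0.0657). The hth gene (FBgn0001235, chromosome 3R, 10507561 to 10639568), whose protein brings Exd into the nucleus, had group means of 734.3 to 811.8 CPM. Its log2 fold changes lay between -0.07 and 0.14, the highest for Tip60dn against Tip60wt at 78 h (adjusted p = 0.0635, and 0.0382 with the replicate as a block or 0.0317 with DESeq2).

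Between the outer ends of the 2 complexes lie 50 further genes of the tables, of which 15 had no count in any library and 29 stayed under 1 CPM in every group. The other 6 all lie in the Antennapedia complex. Ama (3R, 6762593 to 6765261, plus strand), which encodes a secreted immunoglobulin-type adhesion protein, rose with Tip60dn in all 4 comparisons. Its means were 290.6 ± 26.8 CPM (SD, n = 3) in the control, 302.5 ± 9.28 with Tip60wt and 394.1 ± 8.66 with Tip60dn at 48 h, and 279.4 ± 8.82, 300.7 ± 5.21 and 400.5 ± 17.1 at 78 h. The log2 fold change against Tip60wt was 0.39 (SE 0.06, adjusted p = 0.00162) at 48 h and 0.41 (SE 0.04, adjusted p = 1.06e-04) at 78 h. The noncoding gene lncRNA:CR45593, which shares 7.25% of its exon bases with Ama on the opposite strand, rose against the control at both durations, by a log2 fold change of 0.93 (adjusted p = 0.0329) at 48 h and 1.26 (adjusted p = 0.00742) at 78 h. The strand setting of the counting is not given in the sources used here, so reads from the shared bases cannot be assigned to either gene. Against Tip60wt lncRNA:CR45593 was not called, at 0.57 (adjusted p = 0.157) at 48 h and 0.63 (adjusted p = 0.115) at 78 h. Within an intron of Antp, on its strand, lncRNA:CR43252 was lower with Tip60dn than with Tip60wt at 48 h, at 1.04 ± 0.0872 against 1.80 ± 0.0534 CPM (log2 fold change -0.79, SE 0.17, adjusted p = 0.00721), and was not called at 78 h (0.17, SE 0.34, adjusted p = 0.723). At 48 h the control stood between them at 1.29 ± 0.175 CPM: Tip60dn was not called against it (-0.32, adjusted p = 0.179), nor was Tip60wt (0.48, adjusted p = 0.198). The libraries of the 3 arms did not overlap, but the highest Tip60dn library (1.136 CPM) and the lowest control library (1.137 CPM) were nearly equal. Of all genes at 48 h, 24.4% lay lower with Tip60dn than with Tip60wt without overlap, and 24.6% lower than the control. In the 4 Tip60dn comparisons lncRNA:CR33938, 7SLRNA:CR42652 and lncRNA:CR44932, which begins just beyond the end of Antp, were not called.

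The regulators of Hox genes were mostly lower or level with Tip60dn. Of 21 Polycomb group genes, 10 fell and 1 rose against Tip60wt at 48 h, and 11 fell and 0 rose at 78 h. Against the control 11 fell and 0 rose at 48 h, and 12 fell and 1 rose at 78 h. The median log2 fold change of the list was -0.11 and -0.13 against Tip60wt and -0.15 and -0.13 against the control, where the median over all genes lay between 0.01 and 0.03 and 17.7% to 21.7% of all genes fell. The 9 genes lower in all 4 were Asx, Caf1-55, Pcl, Scm, Sfmbt, Su(z)12, cg, esc and phol. Asx, a subunit of the Polycomb deubiquitinase, fell by 0.30 on the log2 scale (SE 0.05, adjusted p = 0.00153) against Tip60wt at 48 h. Pcl, a partner of the histone methyltransferase complex, fell by 0.25 (SE 0.04, adjusted p = 8.84e-04) there. The gene esc, a core subunit of that methyltransferase, fell most against the control at 78 h, by 0.42 (SE 0.06, adjusted p = 8.79e-04). The changes were small, and Pc itself, the chromodomain subunit, was at 29.7 ± 0.544 CPM with Tip60dn and 32.2 ± 1.35 CPM with Tip60wt at 48 h (log2 fold change -0.11, adjusted p = 0.0829) and was not called against Tip60wt at 78 h (-0.13, adjusted p = 0.0501). It was called lower against the control, by -0.15 (adjusted p = 0.0253) at 48 h and -0.16 (adjusted p = 0.0190) at 78 h. Sce, the ubiquitin ligase of the Polycomb complex, was the 1 list gene higher with Tip60wt than in the control (78 h, 0.14, adjusted p = 0.0497).

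Of 22 trithorax group genes, 8 fell and 1 rose in each of 3 Tip60dn comparisons, and 7 fell and 2 rose against the control at 78 h. The median log2 fold change was -0.13 and -0.05 against Tip60wt and -0.09 and -0.03 against the control, at 48 h and 78 h in turn. These counts stand beside the same shares of all genes. Lower in all 4 were E(bx), Snr1, ash1, brm, mor, polybromo and wds, and Set1 was higher in all 4. The histone methyltransferase gene ash1 fell by 0.37 on the log2 scale against Tip60wt at 48 h (SE 0.06, adjusted p = 0.00125). In the same comparison the SWI/SNF ATPase gene brm fell by 0.28 (SE 0.05, adjusted p = 0.00274). At 78 h polybromo, of the same remodeller, fell by 0.27 against Tip60wt (SE 0.04, adjusted p = 5.73e-04). There E(bx), of the remodeller NURF, fell by 0.24 (SE 0.04, adjusted p = 0.00108). Set1, an H3 methyltransferase gene, rose by 0.20 against Tip60wt at both durations. The gene trx itself was not called, with a log2 fold change of -0.08 against Tip60wt at 48 h (SE 0.07, adjusted p = 0.402).

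Of 13 genes described as targets of Hox proteins in other contexts, 3 rose in both comparisons with Tip60wt, 3 rose against the control at 48 h and 6 at 78 h, and none fell in edgeR's quasi-likelihood test. Over all genes 17.6% to 22.4% rose in these comparisons. The 3 that rose in all 4 were rpr, dpp and salr. The death gene rpr, a Dfd target in the embryonic head, was at 26.5 ± 0.640 CPM (SD, n = 3) with Tip60dn, 17.2 ± 1.73 with Tip60wt and 18.1 ± 1.33 in the control at 48 h (0.62 against Tip60wt, SE 0.08, adjusted p = 5.10e-04). The gene of the BMP ligand dpp was at 130.1 CPM with Tip60dn and 101.4 CPM with Tip60wt at 48 h (0.36, SE 0.05, adjusted p = 7.13e-04). The gene salr, which Ubx represses in the haltere disc, was at 338.9 CPM with Tip60dn and 279.3 CPM with Tip60wt at 48 h (0.28, SE 0.05, adjusted p = 0.00381). The median log2 fold change of the list was 0.03 and 0.12 against Tip60wt and 0.16 and 0.14 against the control.

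**Figure D5:**
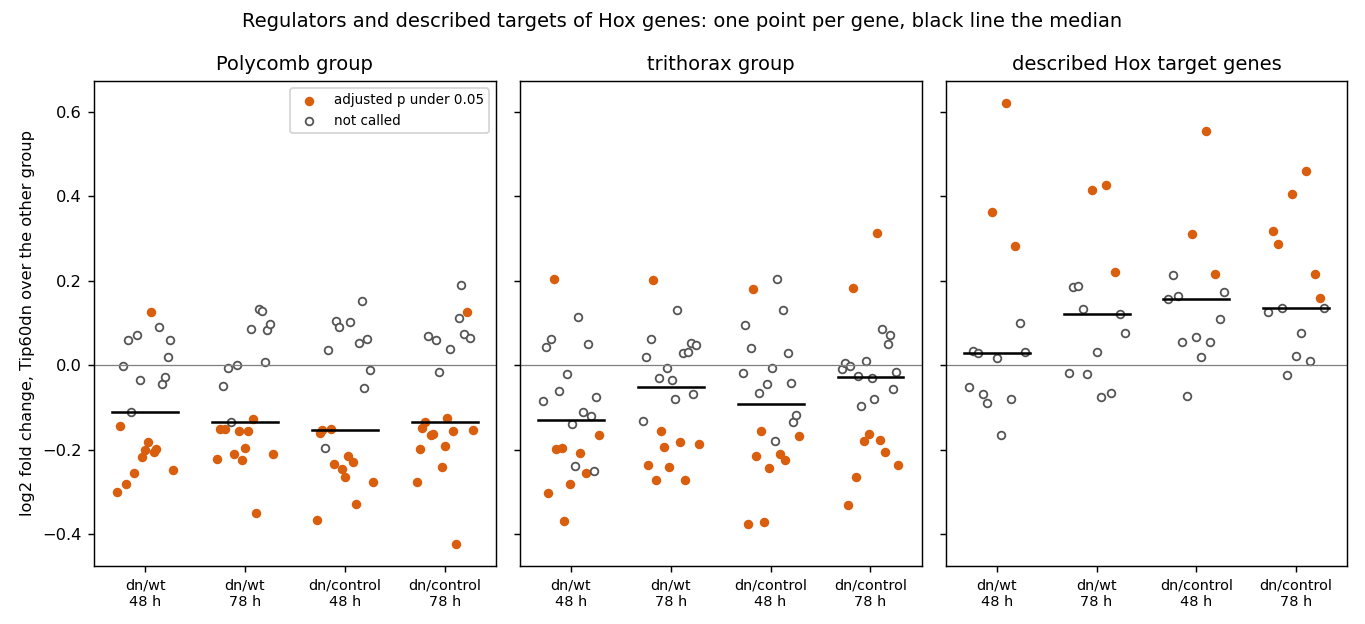
Log2 fold change of Tip60dn over Tip60wt (dn/wt) or control (dn/control) at 48 h and 78 h (horizontal axis) for 21 Polycomb group, 22 trithorax group and 13 described Hox target genes, 1 point per gene, with the median as a black line; filled points were called at an adjusted p under 0.05. Called Polycomb and trithorax genes lie mostly below 0, and called targets lie above it.

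A search over 6682 named genes, each averaging 5 CPM or more, asked which varied like a member. Those whose level followed Antp most closely over the 18 libraries were cno, CG32473 and Tak1. Likeness was the root mean square difference of log2(CPM + 0.1) after centring each gene on its own mean, and it was 0.0449, 0.0498 and 0.0499 for these 3, with a median of 0.127 over all genes searched. Antp itself varied by 0.0652 around its mean on this scale, so these are genes that also varied little. For Ubx the closest were CG15535 (0.124), ND-15 (0.131) and CG11367 (0.132), with a median of 0.217.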

How the data were processed

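The authors deposited 2 tables of raw counts per FlyBase gene, 1 per duration. The submitters' processing notes name the build BDGP6 and the tools edgeR 3.13.4, limma, featureCounts and FastQC, with no role; which aligner, strand setting and annotation release they used is not given. Symbols, exon lengths and coordinates came from Ensembl release 115 (17253 of 17559 identifiers matched).

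Counts were tested with edgeR 4.0.16 in R 4.3.3. The 9 libraries of a duration were fitted together by group, after filterByExpr (minimum 10 counts), with trimmed mean of M values (TMM) scaling and the two-sided quasi-likelihood test. P-values were adjusted by the Benjamini-Hochberg method over every gene of a comparison, and a call means an adjusted p under 0.05. Contrasts between durations, interactions and the mean of both durations used all 18 libraries. Mean ± SD values are of TMM-scaled CPM over 3 libraries. The fits were tested on simulated data with the same spread for all genes, for Tip60dn against Tip60wt. Of 100 genes changed 1.5-fold, 26 were called at 48 h and 24 at 78 h. Of 100 changed 2-fold, 74 and 86 were called, so smaller changes were often missed in the simulation. Its spread was a fixed setting and was not estimated from these libraries. These shares therefore do not give the power of the real comparisons, where the median SE of the log2 fold change was 0.083 at 48 h and 0.078 at 78 h. At each duration 6 unchanged genes were called. Alternatives were DESeq2 1.42.0, limma-voom (limma 3.58.1), relative log expression scaling, no filter, only the libraries compared, all 18 libraries in 1 fit, a replicate block and leaving out each library.

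The members, lists, tests and rule for named genes were chosen with earlier results of these data known. All members, both cofactors and neighbours of at least 1 CPM in a group were named, with up to 2 called members of smallest adjusted p per regulator or target list and comparison, the 2 highest of each marker list mentioned and the 3 genes most like Antp or Ubx. The genes listed as called in all 4 comparisons, Pc, trx and Dfd's pattern were picked after their values were seen. Same-numbered residuals correlated across genes by 0.255, 0.348 and 0.314 between Tip60wt and Tip60dn at 78 h, above 0.1 in every pair, so there the numbers were taken as pairs.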

Additional observations from a re-analysis of the deposited data

How the results depend on the processing

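Results were recomputed under DESeq2, limma-voom, relative log expression scaling, no filter, only the libraries compared, all 18 libraries in 1 fit, a replicate block and with each library left out. With no filter on low counts the number of members called went from 1 to 0 for Tip60dn against Tip60wt at both durations and for Tip60dn against control at 48 h. With the replicate block it was 0 for Tip60dn against Tip60wt at 78 h. For Tip60dn against control at 78 h it was 2, lab and Ubx, with DESeq2, with only the 6 libraries compared and with the replicate block, although the numbers do not pair those samples. Without 1 library, the count ranged from 0 to 0 against Tip60wt at 48 h, 0 to 1 against the control at 48 h, 0 to 2 against Tip60wt at 78 h and 1 to 2 against the control at 78 h, and from 2 to 3 in each average over both durations, the further member being Dfd against Tip60wt and Antp against the control. The block changed no other count of members. Values near 0 changed sign: hth for Tip60dn against Tip60wt at 48 h was 0.0016 with limma-voom, 0.0015 with only the 6 libraries and 0.0011 with the replicate block, and with no filter the averages were -0.0193 for Antp against Tip60wt and -0.0059 for hth against the control. Without 1 library, values near 0 also changed sign. The ranges for Tip60dn against Tip60wt were -0.0819 to 0.0023 (Antp) and -0.0646 to 0.0346 (hth) at 48 h, -0.0134 to 0.1045 (Antp) at 78 h and -0.0289 to 0.0298 (Antp) in the average. Against the control those of Tip60dn were -0.0591 to 0.0065 (hth, 48 h), -0.0906 to 0.0276 (Antp, 78 h) and -0.0115 to 0.0333 (hth, average). For Tip60wt against the control they were -0.1641 to 0.1257 (lab), -0.0853 to 0.1601 (Ubx), -0.1301 to 0.0018 (exd) and -0.0640 to 0.0333 (hth) at 48 h, and for Ubx -0.1500 to 0.0696 at 78 h and -0.0683 to 0.0541 in the average. None of these was called. At 48 h control libraries correlated best with the same number in both other arms, but not over 0.1 in every pair. The causes were not tested. Members under about 10 counts per library are limited by depth.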
